A study of Mus musculus with 4 samples.

Results

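The Hox genes, which carry the positional code of the body axis and limbs, were examined in single-cell RNA libraries of mouse hindlimb bone and marrow. Members were all protein-coding rows whose symbol is Hox, a cluster letter from a to d and a paralogue number and nothing else, which gave 39 of the 32285 genes measured. Cells came from femurs and tibias of INK-ATTAC mice, which carry an inducible caspase 8 cassette driven by a p16 promoter fragment. Of the 2 RNA libraries, 1 was made at the age of 6 months (young) and the other at 24 months or older (old). Both carried the transgene and neither received the drug that activates it. Marrow and bone digests were combined, red cells were lysed and lineage-positive cells were depleted on magnetic columns. The remaining cells were stained for CD45 and with a barcoded CD24 antibody, and live CD45- cells were then sorted. How many animals went into a library is stated in none of the sources used here, and age, animal and library cannot be told apart and no test of age was possible.

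Hox proteins are homeodomain transcription factors. Their genes sit in 4 clusters, in each of which the order along the chromosome follows the order of expression along the body axis: low paralogue numbers act toward the head and high numbers toward the tail and the tip of the limb. In limb development, paralogue groups 9 and 10 are known for patterning the upper segment, group 11 the middle segment and group 13 the digits, while Hoxa9 and Hoxb4 are also known as regulators of blood stem and progenitor cells. Skeletal and connective tissue cells of adult animals keep Hox expression that reflects their site of origin. Proteins of the TALE class (Pbx, Meis, Pknox) bind DNA together with Hox proteins.

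All 39 members fell into 4 blocks of the mouse genome (RefSeq coordinates, GRCm38.p6). The A cluster, with 11 members, lay on chromosome 6, the B cluster, with 10, spanned chr11:96194316-96368254, the C cluster, with 9, chr15:102921131-103036856, and the D cluster, with 9, chr2:74668225-74765142. Promoters (250 bases before to 50 after a start listed for the gene) were found in the RefSeq table for 22 of the 39 members. For each cluster the promoter of the member with the most UMIs among these is given here, 5′ to 3′ on the gene's strand, since the report turns on differences between clusters. The Hoxc4 window surrounds a start inside the gene, whose annotated span begins at chr15:103018097, and the other windows lie at the annotated start of their gene. Capitals mark the letters CCAAT or, on the other strand, ATTGG.
Hoxa10, chr6:52240805-52241104, minus strand: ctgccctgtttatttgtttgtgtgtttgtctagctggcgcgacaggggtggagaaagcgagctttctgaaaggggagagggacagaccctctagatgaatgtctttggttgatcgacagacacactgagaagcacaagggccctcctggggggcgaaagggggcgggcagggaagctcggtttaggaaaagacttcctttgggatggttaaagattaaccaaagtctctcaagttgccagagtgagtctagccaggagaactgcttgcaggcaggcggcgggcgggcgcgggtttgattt
Hoxb4, chr11:96318017-96318316, plus strand: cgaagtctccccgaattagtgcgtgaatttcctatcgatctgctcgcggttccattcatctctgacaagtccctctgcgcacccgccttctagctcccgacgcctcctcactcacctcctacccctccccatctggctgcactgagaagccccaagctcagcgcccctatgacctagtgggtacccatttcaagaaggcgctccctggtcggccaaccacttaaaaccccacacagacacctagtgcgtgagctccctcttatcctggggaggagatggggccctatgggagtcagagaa
Hoxc4, chr15:103034145-103034444, plus strand: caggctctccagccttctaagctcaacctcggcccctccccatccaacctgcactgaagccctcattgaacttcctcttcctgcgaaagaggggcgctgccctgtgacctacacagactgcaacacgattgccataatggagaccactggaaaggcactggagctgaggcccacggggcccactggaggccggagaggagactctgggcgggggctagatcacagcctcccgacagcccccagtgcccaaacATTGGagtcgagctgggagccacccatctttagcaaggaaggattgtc
Hoxd8, chr2:74704365-74704664, plus strand: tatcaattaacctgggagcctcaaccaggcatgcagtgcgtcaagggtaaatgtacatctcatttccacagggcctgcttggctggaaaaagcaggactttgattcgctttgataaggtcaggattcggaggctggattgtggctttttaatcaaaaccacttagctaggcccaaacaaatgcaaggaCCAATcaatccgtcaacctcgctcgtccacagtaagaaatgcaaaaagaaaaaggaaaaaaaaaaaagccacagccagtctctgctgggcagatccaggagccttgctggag
The letters CCAAT on either strand were present in 14 of the 22 Hox promoters (63.6%) and in 37.9% of all 27025 promoters of the same length. TATAAA on either strand was present in 3 of 22, against 14.2% of all promoters, and TGATNNAT, the letters of a site shared by Hox and Pbx proteins, in 3 of 22 against 9.04%. The median GC content was 56.8% for the Hox promoters and 52.7% for all promoters. These windows hold letters, not measured binding, and no motif was linked to a level.

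After removal of barcodes with fewer than 200 genes or more than 20% mitochondrial UMIs (unique molecular identifiers, 1 per captured RNA molecule), 10063 of 11371 young and 5607 of 6729 old barcodes remained, with 81076421 and 66702846 RNA UMIs. The median was 6385 UMIs per cell in the young and 9711 in the old library, so the old cells were deeper. Cells were classed by the marker list with the highest share of detected markers, with no Hox gene among the markers. The mesenchymal classes (marrow stromal, osteoblast, chondrocyte, fibroblast, tendon, joint lining, pericyte or smooth muscle-like) held 7438 young and 4022 old cells, and the blood classes (erythroid, B lineage, neutrophil, megakaryocyte, blood progenitor-like) held 1091 and 802, although the sort was for CD45- cells. No class was given to 1518 young and 774 old cells. Endothelial markers summed to 17.1 and 11.3 CPM (counts scaled to the same library total) and macrophage markers to 1.49 and 2.52 CPM, so neither cell type was present in number. The libraries shared 25 barcodes, of which 19 were kept in both.

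Hox genes contributed 29901 young and 23646 old UMIs. Of the 39 members, 26 had at least 100 UMIs over both libraries, 12 had 1 to 85, and Hoxd12 had none. All 11 members of the A cluster and 7 of the 9 of the C cluster reached 100 UMIs, against 3 of 10 in the B cluster (Hoxb2, Hoxb3 and Hoxb4) and 5 of 9 in the D cluster (Hoxd4, Hoxd8, Hoxd9, Hoxd10 and Hoxd11). The members under 100 UMIs were Hoxb1, Hoxb5, Hoxb6, Hoxb7, Hoxb8, Hoxb9, Hoxb13, Hoxc12, Hoxc13, Hoxd1, Hoxd3 and Hoxd13. Hoxc13, with 85 UMIs, lay just outside the limit.

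In mesenchymal cells the Hox genes together stood at 454 CPM in the young and 455 CPM in the old library, and in blood cells at 41.7 and 28.1 CPM. Levels between genes were compared as CPM without division by length, because each UMI tags a 3′ end. Hoxa10, a gene of patterning of the upper limb segment, was the most abundant member, at 85.7 CPM (95% exact Poisson interval 83.3 to 88.2) in young and 72.6 (70.1 to 75.1) in old mesenchymal cells. These intervals cover counting error only and not the spread between animals. Hoxa9 followed at 56.4 and 55.7 CPM and Hoxc10 at 56.1 and 52.7 CPM, and the intervals of this pair overlapped in each library. Hoxc9 was next at 42.1 and 39.1 CPM. Hoxc6, at 34.7 and 36.2 CPM, and Hoxa7, at 33.3 and 35.2 CPM, had overlapping intervals in both libraries. Paralogue group 10 reached 143 and 126 CPM and group 9 reached 107 and 103 CPM, above all other groups. Groups 9 to 11 together held 60.6% (young) and 55.7% (old) of the mesenchymal Hox UMIs. Group 12 was the lowest, at 0.107 and 0.483 CPM.

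**Figure D1:**
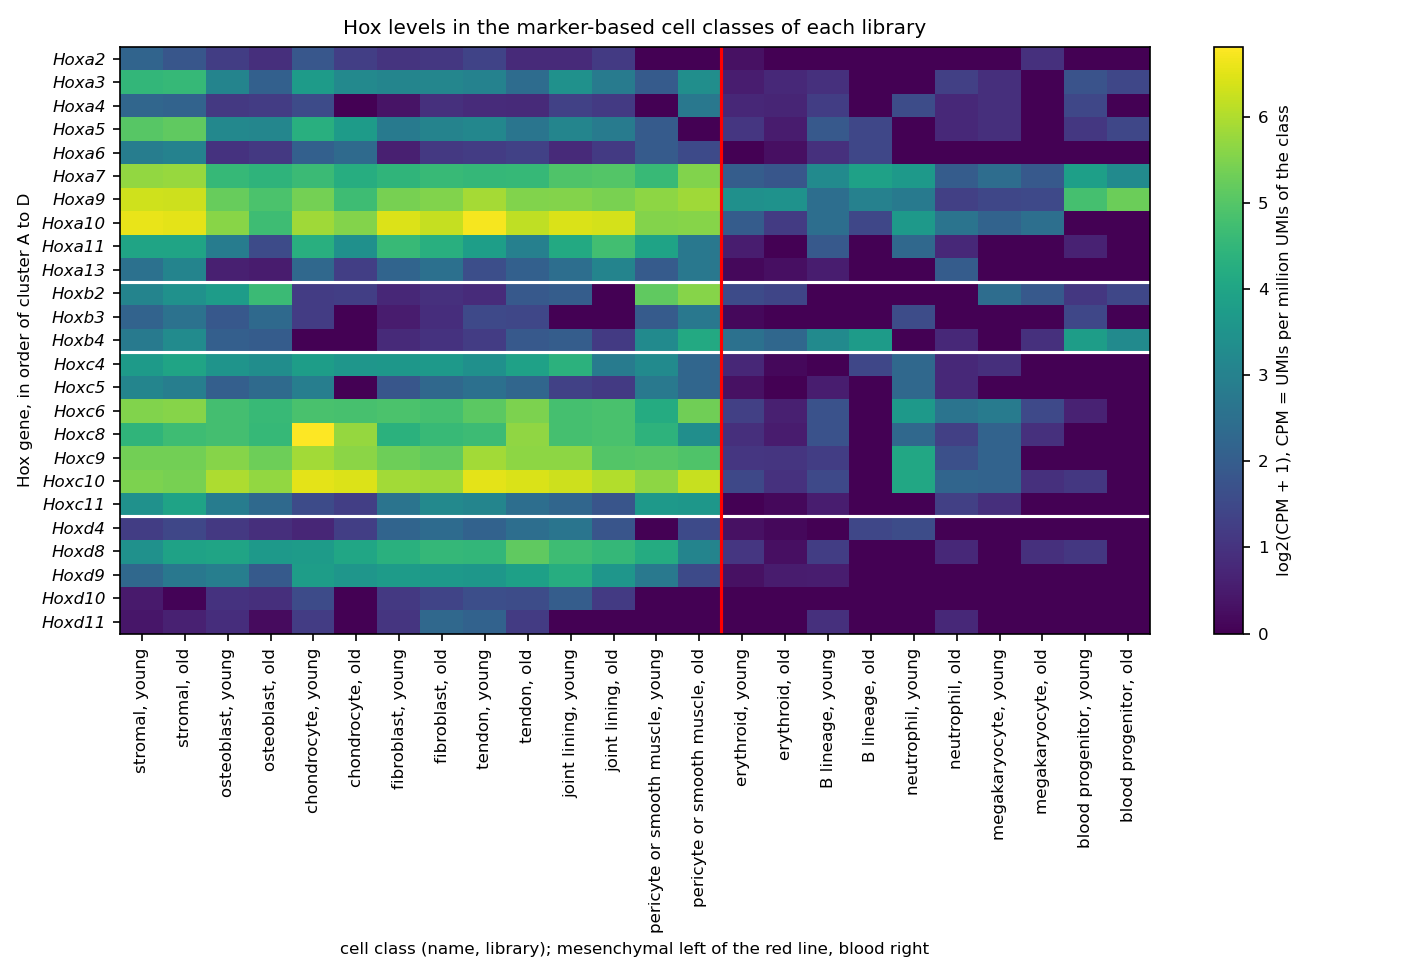
Heat map of log2(CPM + 1) for the Hox genes with at least 100 UMIs that are named here (rows, by cluster) in 12 cell classes, young and old library side by side (columns); the red line separates mesenchymal from blood classes. Hoxa10, Hoxa9 and Hoxc10 are bright in most mesenchymal columns, with an order that differs between classes. Hoxc8 is also bright in chondrocyte-like and Hoxb2 in pericyte or smooth muscle-like cells. Blood columns are low, with more signal at Hoxa7, Hoxa9 and Hoxb4 than at most members.

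Mesenchymal and blood cells of the same libraries were compared to ask where the Hox code is expressed (edgeR quasi-likelihood F test on sums per library and compartment, library as block, Benjamini-Hochberg adjustment over 15901 genes). Of the 28 Hox genes that passed the filter on low counts, 26 rose in mesenchymal cells, where 38.1% of all tested genes were called higher, and 0 fell, where 33.5% of all tested genes were called lower. The median log2 fold change of the 28 was 4.07, against 0.11 over all genes. By the unadjusted p-value 26 passed as well, and DESeq2 called 23 higher and 0 lower.

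Hoxa10 stood at 85.7 CPM in young and 72.6 in old mesenchymal cells and at 3.19 and 1.91 CPM in blood cells. Its log2 fold change was 4.70 ± 0.17 (SE, n = 2 libraries; edgeR adjusted p = 0.000280), and the compartments did not overlap. Hoxa11, known for the middle limb segment, stood at 17.0 and 13.4 CPM against 0.901 and 0.0764 CPM, a log2 change of 4.74 ± 0.54 (edgeR adjusted p = 0.00232). Hoxa5, at 16.7 and 18.4 CPM against 1.32 and 0.535, rose by 3.97 ± 0.36 (edgeR adjusted p = 0.00126). Hoxa3, at 13.2 and 12.9 CPM against 0.762 and 0.764, rose by 3.82 ± 0.25 (edgeR adjusted p = 0.000625). These members of the A cluster were far apart in both libraries. Hoxa2, Hoxa6 and Hoxa13 rose by 3.63 to 3.90 on the log2 scale.

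Hoxa9 and Hoxa7 differed less between the compartments. Hoxa9 stood at 56.4 and 55.7 CPM in mesenchymal and at 10.2 and 9.62 CPM in blood cells, a log2 change of 2.23 ± 0.13 (edgeR adjusted p = 0.000520). Hoxa7 stood at 33.3 and 35.2 CPM against 5.54 and 3.36, a change of 2.69 ± 0.22 (edgeR adjusted p = 0.000992). Hoxa4 did not pass the test, at 1.82 and 2.06 CPM in mesenchymal and 0.970 and 0.535 CPM in blood cells (log2 1.10, edgeR adjusted p = 0.0787). It was the single member of the A cluster without a call.

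Among the tested members the compartments came closest at Hoxb4, of the B cluster. Hoxb4 stood at 3.09 and 4.78 CPM in mesenchymal and at 5.82 and 3.82 CPM in blood cells, so blood was higher in the young library and lower in the old one, and the difference did not pass (log2 -0.58, edgeR adjusted p = 0.203). Hoxb2 stood at 4.85 and 8.73 CPM against 1.66 and 1.53 and rose by 1.75 ± 0.32 (edgeR adjusted p = 0.00961). Hoxb3, at 1.97 and 3.07 CPM against 0.347 and 0 CPM, rose by 3.48 ± 0.91 (edgeR adjusted p = 0.0269). Hoxb7 had 57 mesenchymal and 0 blood UMIs. Its mesenchymal level was 5.15-fold above a floor of 3 UMIs over the blood group. This ratio leaves out the counting error of the mesenchymal UMIs. It was 3.16-fold for Hoxb6 and 1.54-fold for Hoxb8, neither of which entered the test. For Hoxb8 the Poisson intervals of the compartments overlapped in both libraries. Hoxb5 had 13 mesenchymal UMIs and 1 in blood, Hoxb9 had 4 and 0, and Hoxb1 and Hoxb13 had 1 each, all in mesenchymal cells.

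All members of the C cluster that were tested rose in mesenchymal cells. Hoxc10 stood at 56.1 and 52.7 CPM against 2.36 and 1.15 in blood, a log2 change of 4.70 ± 0.24 (edgeR adjusted p = 0.000405). Hoxc11, at 7.21 and 9.70 CPM against 2 and 3 blood UMIs, had the largest estimate of the cluster, 5.23 ± 0.37 (edgeR adjusted p = 0.000713). Over both libraries the counting interval of its log2 ratio, 4.29 to 7.14, covered that of Hoxc10, 4.53 to 5.37. Hoxc4, Hoxc5, Hoxc6, Hoxc8 and Hoxc9 rose by 4.17 to 4.63 on the log2 scale. Hoxc13 had 72 mesenchymal UMIs and 1 in blood and rose by 3.84 ± 1.16 (edgeR adjusted p = 0.0396). Hoxc12 was not tested, and with 28 mesenchymal and 0 blood UMIs stood 2.53-fold above the floor of 3 blood UMIs.

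In the D cluster Hoxd8 led at 15.1 and 18.2 CPM in mesenchymal cells and rose by 4.34 ± 0.45 over blood (edgeR adjusted p = 0.00178). Hoxd9, at 8.47 and 7.90 CPM, rose by 4.72 ± 0.38 (edgeR adjusted p = 0.000938). Hoxd4 rose by 3.49 ± 0.48 and Hoxd11 by 3.14 ± 0.68. Each of these was higher in mesenchymal cells in both libraries. Hoxd10 was called higher with 94 mesenchymal and 0 blood UMIs, 8.49-fold above the floor. Hoxd3, not tested, stood 2.62-fold above the floor, and its Poisson intervals overlapped between the compartments in both libraries. Hoxd1 and Hoxd13, the latter a digit gene, had 5 and 12 mesenchymal UMIs.

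**Figure D2:**
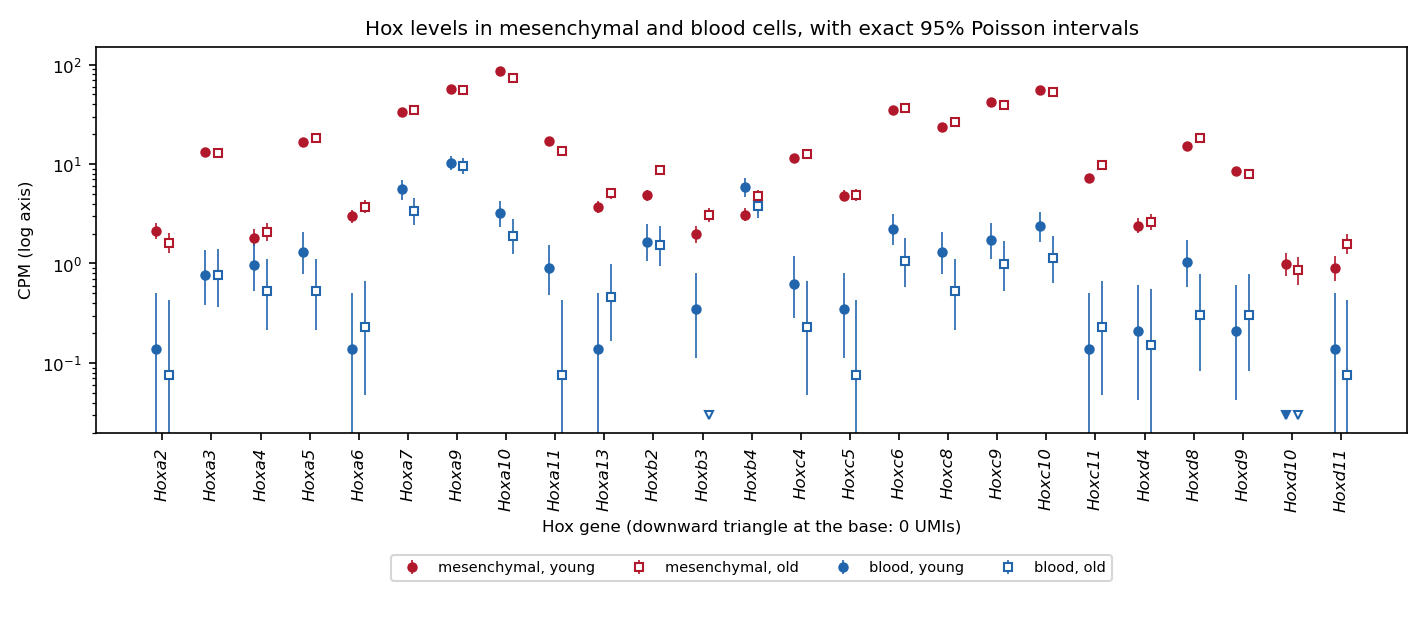
Level of the Hox genes with at least 100 UMIs that are named here, in CPM (log axis) in mesenchymal (red) and blood cells (blue), filled points for the young and open points for the old library, bars for exact 95% Poisson intervals and triangles for 0 UMIs. Red and blue points are far apart for most genes and mix for Hoxb4, where blood was at 5.82 and 3.82 CPM and mesenchymal cells at 3.09 and 4.78.

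Blood levels were set beside the level of mesenchymal markers in the same blood cells. The mesenchymal marker lists summed to 2.61% of their mesenchymal level in young and 2.05% in old blood cells. Hoxa10 reached 3.72% and 2.63% of its mesenchymal level there, and the C cluster members with at least 100 UMIs 1.92 to 7.21% and 1.56 to 2.96%. Hoxb4 stood at 188% and 79.9%, Hoxa4 at 53.2% and 25.9%, Hoxb2 at 34.3% and 17.5%, Hoxa9 at 18.1% and 17.3% and Hoxa7 at 16.6% and 9.54%, all above the marker level. In the blood progenitor-like class the markers were at 0.949% and 0.496%, Hoxa9 at 47.4% and 68.2% and Hoxb4 at 414% and 181%. That class held only 78 and 23 cells, with 111 and 35 Hox UMIs in all. In the neutrophil-like class the markers themselves reached 15.9% and 6.30%. Without the neutrophil-like cells, a choice made after seeing these values, Hoxb4 in blood was at 6.03 and 4.18 CPM and Hoxa9 at 10.3 and 10.6 CPM. The part of free RNA in the blood levels was not tested.

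Per cell, the contrast was the same in both libraries. After each cell was thinned to 2000 UMIs, 58.7% of young mesenchymal cells (exact binomial 95% interval 57.6 to 59.9) and 59.0% of old ones (57.4 to 60.6) had at least 1 Hox UMI. In blood cells the share was 6.37% (4.94 to 8.06) and 4.03% (2.74 to 5.71). Without thinning the shares were 87.9% and 90.9% in mesenchymal cells, at medians of 6460.5 and 9963 UMIs, and 25.8% and 22.1% in blood cells, at medians of 8082 and 9446.5 UMIs. A thinned mesenchymal cell showed 0.879 and 0.920 different Hox genes on average, and a blood cell 0.0726 and 0.0417. Thinning left out 395 young and 252 old mesenchymal cells and 86 and 58 blood cells as too shallow.

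The share of Hox UMIs from each cluster differed between the compartments. In mesenchymal cells the A cluster gave 51.6% and 48.7% of Hox UMIs, the C cluster 39.8% and 40.3%, the D cluster 6.22% and 6.97% and the B cluster 2.36% and 4.04%. In blood cells the B cluster gave 18.8% and 19.3% and the C cluster 21.1% and 15.2%. The UMI-weighted mean paralogue number was 8.25 and 8.08 in mesenchymal and 7.17 and 7.29 in blood cells. Among mesenchymal classes the stromal-like class drew most on the A cluster (59.6% and 57.0%), and the chondrocyte-like class drew most on the C cluster (58.9% and 59.6%). The B cluster was largest in the pericyte or smooth muscle-like class (13.4% and 16.7%). It gave 0.617% and 0.361% in the chondrocyte-like, 0.631% and 0.943% in the fibroblast-like and 1.61% and 0.599% in the joint lining-like class. The blood progenitor-like class drew 71.2% and 82.9% of its 111 and 35 Hox UMIs from the A cluster and 2.70% and 0% from the C cluster.

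**Figure D3:**
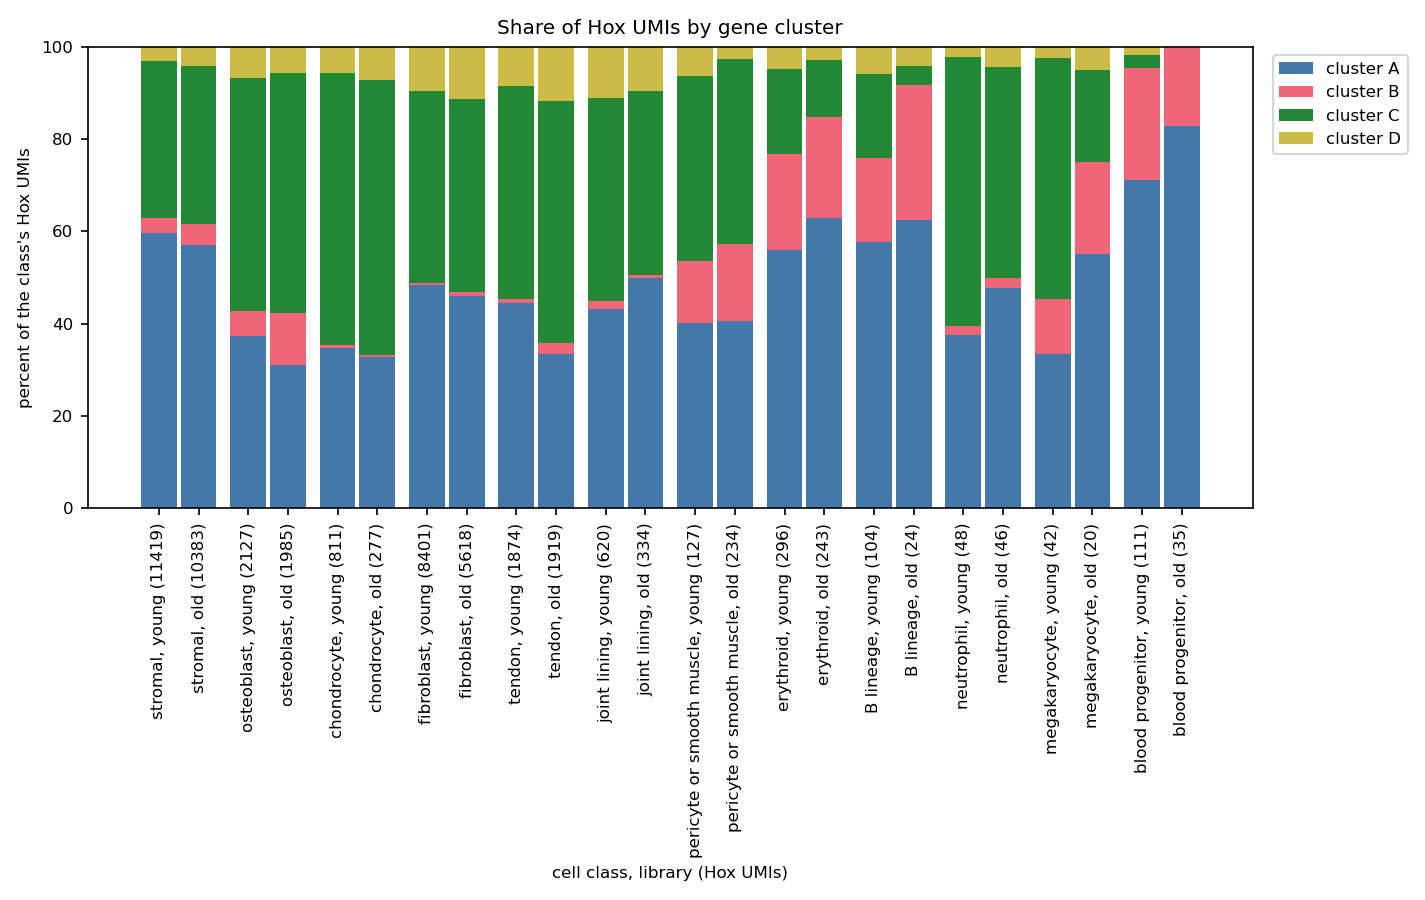
Percent of Hox UMIs from the A, B, C and D clusters (stacked bars) in each cell class of the young and the old library, with the number of Hox UMIs in brackets. The stromal-like bars are the richest in the A cluster among the mesenchymal classes (59.6% and 57.0%), and the blood bars hold more of the B cluster than the fibroblast-like bars (0.63% and 0.94%).

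Classes with at least 50 cells in each library were then compared with the mean of the other classes of their compartment (edgeR quasi-likelihood F test, 24 Hox genes among 14330 genes tested). Marrow stromal-like cells, the Lepr and Cxcl12-expressing cells that support blood formation, showed the broadest difference. In these cells 9 Hox genes rose (19.7% of all tested genes were higher) and 1 fell (12.1% lower), and 8 of the 9 belong to the A cluster. Hoxa5 stood at 31.8 CPM in young and 34.7 in old stromal-like cells and between 5.27 and 18.8 CPM in the osteoblast, chondrocyte, fibroblast, tendon and joint lining-like classes of both libraries. Its log2 change was 2.71 ± 0.24 (edgeR adjusted p = 5.75e-07). That fit left out the chondrocyte and joint lining-like classes. It included pericyte or smooth muscle-like cells, in which Hoxa5 was nearly absent. Over classes of at least 20 cells, which took in all mesenchymal classes, the Hoxa5 change was 2.29 ± 0.20. Hoxa6 stood at 6.37 and 7.19 CPM and rose by 2.21 ± 0.33 (edgeR adjusted p = 0.000187), and Hoxa3 at 21.9 and 22.7 CPM and rose by 1.65 ± 0.24 (edgeR adjusted p = 8.98e-05).

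The other stromal-like calls were smaller. Hoxa4, Hoxa13 and Hoxb4 rose by 1.45, 1.28 and 1.11 on the log2 scale. Hoxa7 (0.88), Hoxa9 (0.63) and Hoxa10 (0.51) rose by less than 1. The Hoxa10 call was lost with 1 more marker needed per class, with DESeq2 and without the library block. Hoxc10 fell by 0.81 ± 0.17, at 43.1 and 41.6 CPM against 49.1 to 91.3 CPM in the other mesenchymal classes of both libraries.

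In osteoblast-like cells 1 Hox gene rose (11.9% of tested genes were higher) and 4 fell (8.44% lower). Hoxb2 stood at 12.7 and 24.2 CPM and rose by 2.13 ± 0.24 (edgeR adjusted p = 2.67e-05). The members that fell were those of the posterior A cluster. Hoxa13 was at 0.506 and 0.445 CPM, against 4.85 and 7.45 CPM in stromal-like cells, and fell by 2.88 on the log2 scale (edgeR adjusted p = 0.000943). Hoxa11, at 6.25 and 1.93 CPM, fell by 1.55, Hoxa10, at 47.6 and 25.1 CPM, by 0.89, and Hoxa9 by 0.58. Of these 5 calls, 2 held in all alternatives in which they were tested, Hoxb2 and Hoxa13.

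In fibroblast-like cells 3 Hox genes rose (12.7% of tested genes were higher) and 5 fell (7.71% lower). Hoxb2 was at 0.703 and 0.920 CPM and fell by 3.61 on the log2 scale (edgeR adjusted p = 4.12e-06), Hoxb4 by 2.46 and Hoxb3 by 2.35. Hoxa4 fell by 1.68, and Hoxa7 fell by 0.48 with a call that was lost in 6 alternatives. Hoxa11 stood at 23.1 and 18.8 CPM and rose by 1.32 ± 0.26 (edgeR adjusted p = 0.00187), and Hoxd4 and Hoxd9 rose by 1.28 and 1.14. All 3 tested members of the B cluster were thus low in this class, in both libraries.

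In tendon-like cells 5 Hox genes rose (8.23% of tested genes were higher) and 1 fell (3.51% lower). Hoxc10 stood at 90.9 and 85.8 CPM and rose by 0.72 ± 0.16 (edgeR adjusted p = 0.00892). Hoxd9 rose by 1.18, Hoxd8 by 1.03, Hoxc8 by 0.89 and Hoxa10 by 0.55, and Hoxb2 fell by 2.25. Of these calls 1 held in all alternatives, so they were the least stable of the larger classes. In pericyte or smooth muscle-like cells, of which there were 64 and 58, Hoxb2 stood at 34.6 and 46.6 CPM (12 and 25 UMIs), above every other class in either library, and rose by 3.32 ± 0.38 (edgeR adjusted p = 2.82e-05). There 2 Hox genes rose (9.42% of tested genes were higher) and 1 fell (7.84% lower). Hoxb4, at 8.66 and 16.8 CPM, rose by 2.33 ± 0.52, and Hoxa5 fell by 3.20 with 1 young and 0 old UMIs.

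**Figure D4:**
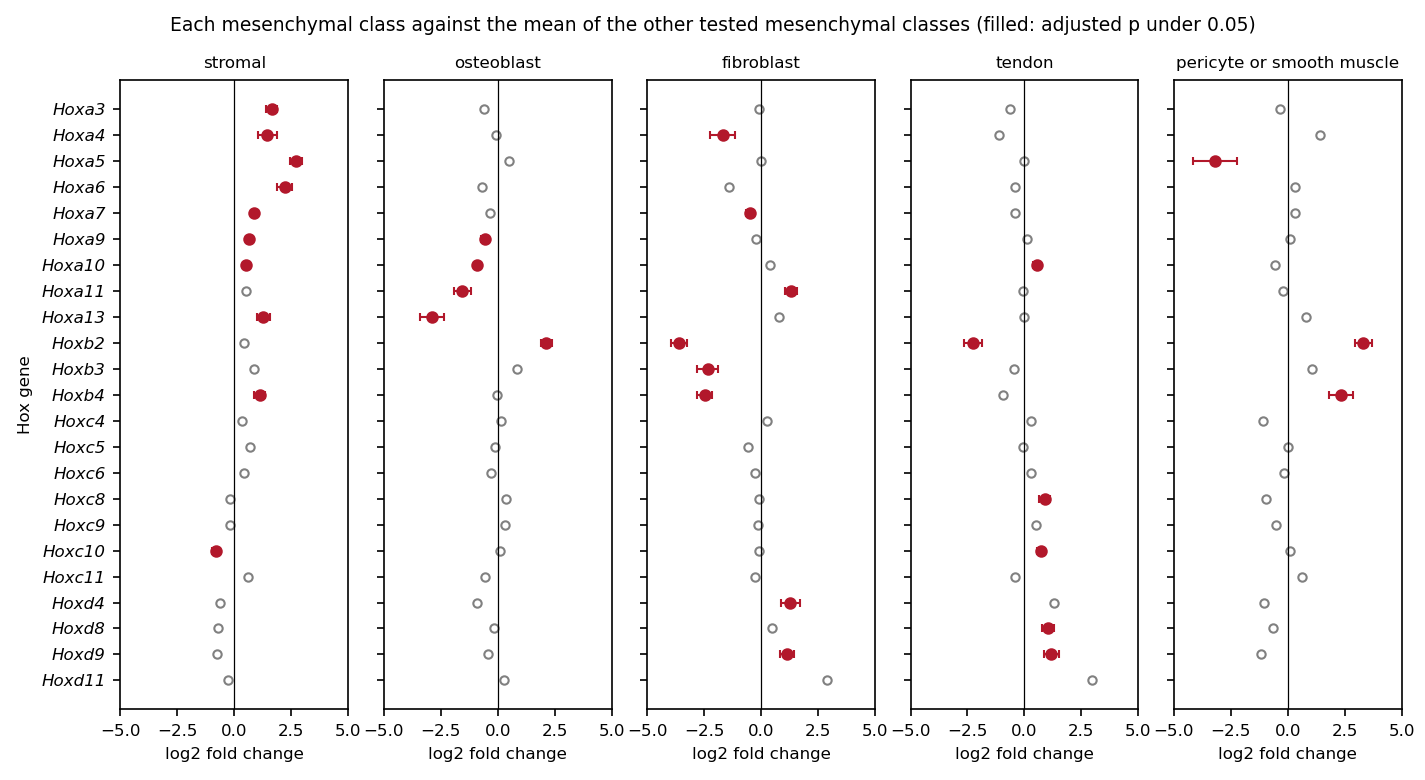
Log2 fold change of each tested Hox gene with at least 100 UMIs in 5 mesenchymal classes, against the mean of the other tested mesenchymal classes, without genes at 0 UMIs in a class; filled points passed an edgeR adjusted p of 0.05 and carry their SE, open points did not pass. Members of the A cluster lie to the higher side in stromal-like cells, up to 2.71 for Hoxa5, and Hoxb2 runs from -3.61 in fibroblast-like to 3.32 in pericyte or smooth muscle-like cells.

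The chondrocyte, joint lining and blood progenitor-like classes had fewer than 50 cells in the old library and were compared in a fit over classes of at least 20 cells, added after seeing the cell numbers (19 Hox genes among 13061 tested). In chondrocyte-like cells 3 Hox genes rose (9.16% of tested genes were higher) and 1 fell (9.57% lower). Hoxc8 stood at 111 CPM in young and 52.5 in old chondrocyte-like cells (172 and 38 UMIs), against 19.3 to 50.2 CPM in stromal, osteoblast, fibroblast and tendon-like cells. Its log2 change was 2.00 ± 0.27 (edgeR adjusted p = 3.76e-05). Hoxa5 rose by 1.40 and Hoxc10 by 0.65, and Hoxb4, with 0 UMIs in both libraries, was called lower. In joint lining-like cells 0 Hox genes were called in either direction by edgeR (6.84% of tested genes higher, 5.72% lower), and 1, Hoxd9, had an unadjusted p under 0.05. DESeq2 was not run on this fit.

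Among blood classes, Hox UMIs were few. Blood progenitor-like cells numbered 78 young and 23 old, with 111 and 35 Hox UMIs in all. They had 3 Hox genes higher (21.8% of tested genes) and 2 lower (10.4%) in the added fit. Hoxa9 stood at 26.8 and 38.0 CPM there and rose by 2.76 ± 0.29 (edgeR adjusted p = 1.23e-06), Hoxb4 at 12.8 and 8.64 CPM and rose by 2.53 ± 0.52, and Hoxa7 rose by 1.14. Hoxa10 and Hoxc9 had 0 UMIs in this class in both libraries. In B lineage-like cells 1 Hox gene rose (19.6% of tested genes were higher) and 0 fell (14.5% lower), with 4 at an unadjusted p under 0.05 and the same counts by DESeq2. It was Hoxb4, at 8.63 and 12.2 CPM (19 and 7 UMIs, log2 2.71 ± 0.58, edgeR adjusted p = 0.00182).

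In erythroid-like cells 3 Hox genes rose (31.5% of tested genes were higher) and 3 fell (19.2% lower). Hoxa9 stood at 9.71 and 10.1 CPM (86 and 96 UMIs) and rose by 1.64 ± 0.29 (edgeR adjusted p = 0.000210), and Hoxb2 and Hoxb4 rose on 17 and 16 and on 43 and 36 UMIs. Hoxa7, Hoxa10 and Hoxc6 fell. In neutrophil-like cells, with 48 and 46 Hox UMIs in all and mesenchymal markers at 15.9% and 6.30% of their mesenchymal level, 6 rose (28.2% of tested genes were higher) and 0 fell (21.4% lower): Hoxa10, Hoxa13, Hoxc5, Hoxc6, Hoxc9 and Hoxc10. The unadjusted p was under 0.05 for 6 of the 24, and DESeq2 called 10 higher and 0 lower. All 4 Hoxa13 UMIs of this class were in the old library, and the log2 change was -2.70 without it. In megakaryocyte-like cells Hoxb2 rose on 5 and 3 UMIs and Hoxa9 fell (21% of tested genes were higher, 19.2% lower). Of these 14 calls in the erythroid, neutrophil and megakaryocyte-like classes, 2 held in all alternatives with a test, Hoxa9 in erythroid-like and Hoxa13 in neutrophil-like cells, the latter being the call that turned without the old library.

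The study separated cells by surface CD24, a small membrane glycoprotein, and the Hox genes were compared between CD24+ (580 young, 203 old) and CD24- mesenchymal cells (6858 and 3819). Of 29 Hox genes tested, 2 rose (10.3% of tested genes were higher) and 5 fell (8.77% lower). Hoxa9 stood at 42.5 and 32.1 CPM in CD24+ and at 58.3 and 57.5 CPM in CD24- cells, a log2 change of -0.56 ± 0.11 (edgeR adjusted p = 0.00184). Hoxa5, Hoxa7, Hoxa10 and Hoxa11 fell by 0.48, 0.41, 0.36 and 0.67. Hoxc8, at 32.0 and 33.9 against 22.6 and 26.0 CPM, rose by 0.51 ± 0.10 (edgeR adjusted p = 0.00340), and Hoxc10 rose by 0.28 ± 0.09. All these changes were below 2-fold, and without the library block none of the 7 passed.

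The kinds of cells differed between the CD24 groups. Osteoblast-like cells made up 25.9% and 31.0% of CD24+ cells against 8.88% and 9.58% of CD24- cells. Chondrocyte-like cells, the class with the highest Hoxc8 level in the young library, made up 9.66% and 7.88% against 1.59% and 0.812%. Stromal-like cells made up 34.5% and 32.5% against 46.8% and 53.6%. When each class of CD24- cells was given the weight it had among CD24+ cells, an alternative added after seeing these shares, Hoxc8 differed by 0.07 (young) and 0.30 (old) on the log2 scale, and Hoxa9 by -0.41 and -0.61. Within stromal-like cells Hoxa9 stood at 51.6 and 36.8 CPM in CD24+ and at 81.4 and 79.9 CPM in CD24- cells, lower in CD24+ cells in both libraries. The values pointed the same way in osteoblast-like cells (32.2 and 17.1 against 37.7 and 30.8 CPM, 49 and 18 CD24+ UMIs). In fibroblast-like cells they were 29.7 and 28.1 against 42.2 and 45.4 CPM, on 44 and 14 CD24+ UMIs. These counts are small, and counting intervals were not computed within classes. In chondrocyte-like cells CD24+ cells were lower in the young library (30.0 against 49.1 CPM, 20 and 43 UMIs) and higher in the old one (48.7 against 15.4 CPM, 10 and 8 UMIs). Erythroid markers summed to 53.0 and 141 CPM in CD24+ and to 9.57 and 11.4 CPM in CD24- mesenchymal cells, with 0 of the 9 markers at 0 in any group. B lineage markers summed to 98.2 and 50.4 against 5.94 and 2.95 CPM, with 1 of 10 at 0 in the young CD24+ cells and 2 of 10 in the old CD24- cells. The part of blood RNA or mixed droplets in the CD24 differences was not tested.

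Young and old mesenchymal cells were compared without a test, since each age had 1 library. The call required a change of at least 2-fold, Poisson intervals that do not overlap and at least 20 UMIs in 1 library, which 30 Hox genes could meet. Of these, 2 were higher in the old library (1.98% of genes) and 0 lower (1.68%). Hoxc12 went from 0.107 to 0.483 CPM (6 and 22 UMIs) and Hoxc13 from 0.358 to 1.14 CPM (20 and 52 UMIs). Both lie at the posterior end of the C cluster and both were among the lowest members. Without the fold limit 12 had intervals apart, against 28.5% of all genes. Of these, Hoxa10 (ratio of old to young 0.847) and Hoxa11 (0.786) were lower. Hoxb2 (1.80), Hoxd11 (1.77), Hoxb3 (1.56), Hoxb4 (1.55), Hoxa13 (1.38), Hoxc11 (1.35), Hoxd8 (1.21) and Hoxc8 (1.12) were higher, beside Hoxc12 and Hoxc13. Age, animal and library cannot be told apart. Stromal-like cells were 33.9% of kept young and 37.7% of kept old cells, and fibroblast-like cells 24.4% and 19.0%. The part of this class mix in the ratios was not tested.

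Within classes the changes were not alike. In stromal-like cells 4 of 24 Hox genes had intervals apart (22.3% of all genes), Hoxa13, Hoxb4, Hoxc11 and Hoxd8, all higher in the old library, and 0 reached 2-fold (1.71% of all genes higher, 1.32% lower). In osteoblast-like cells 3 of 18 were at least 2-fold lower in the old library (3.05% of genes) and 0 higher (1.73%): Hoxa3 (7.43 to 3.27 CPM), Hoxa11 (6.25 to 1.93) and Hoxd9 (6.58 to 2.82). In the same cells Hoxa10 went from 47.6 to 25.1 CPM and Hoxb2 from 12.7 to 24.2 CPM, which made 5 of 18 with intervals apart (22.2% of all genes). Hoxc8 went from 111 to 52.5 CPM in chondrocyte-like cells (172 and 38 UMIs), the 1 of 11 called lower (3.07% of genes; 2.89% were higher), and from 24.5 to 50.2 CPM in tendon-like cells (93 and 200 UMIs), the 1 of 14 called higher (1.27%, with 1.62% lower). Hoxd11 went from 1.08 to 3.96 CPM in fibroblast-like cells, the 1 of 21 called higher (1.98%, with 1.39% lower). In the joint lining and pericyte or smooth muscle-like classes and in blood cells as a whole 0 Hox genes were called (backgrounds of 1.73% and 1.59%, 4.11% and 1.44%, and 4.23% and 4.56% higher and lower).

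**Figure D5:**
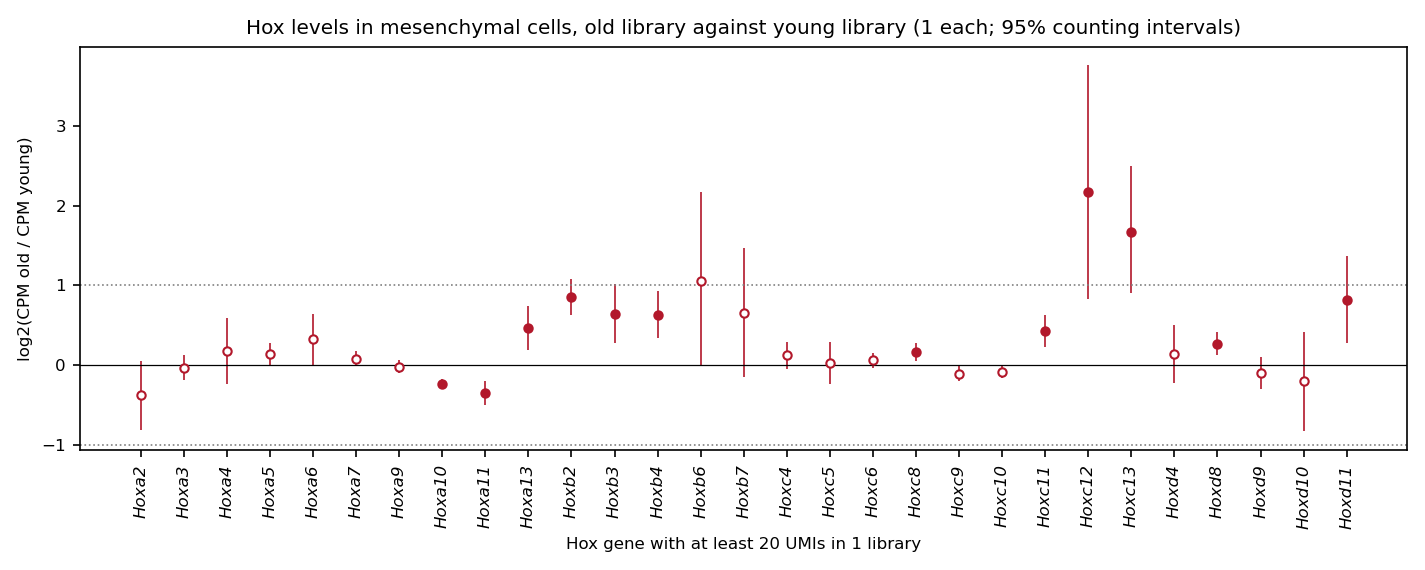
Log2 ratio of the old to the young library in mesenchymal cells for the Hox genes named here with at least 20 UMIs in 1 library, with 95% intervals that cover counting error only; filled points have Poisson intervals apart, and dotted lines mark 2-fold. Most points lie within 2-fold, and Hoxc12 (2.17) and Hoxc13 (1.67) lie above it.

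The genes that work with or upstream of the Hox genes were given from 3 lists. Of 9 TALE partner genes, 4 rose in mesenchymal over blood cells and 1 fell, with a median log2 change of 0.35 against 0.11 for all genes. With 38.1% of all tested genes higher and 33.5% lower in this comparison, the share of TALE genes that rose was near the background. Meis2, at 55.4 and 53.6 CPM in mesenchymal and 3.47 and 1.30 CPM in blood cells, rose by 4.29 ± 0.32 (edgeR adjusted p = 0.000816), Pknox2 by 4.40 and Meis3 by 4.18. Pbx4 fell by 4.68. All 12 factors of limb position rose, with a median of 4.51, led by Shox2, a gene of the upper limb segment, at 134 and 138 CPM. Pitx1 and Tbx4, known for hindlimb identity, stood at 30.6 and 25.4 and at 10.1 and 7.33 CPM, and Tbx5, known for the forelimb, at 3.83 and 2.30 CPM.

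Of 17 regulators of Hox chromatin, 14 were tested, 6 rose and 4 fell, with a median of 0.11. Over all tested genes 38.1% were higher and 33.5% lower, with a median of 0.11, so this list was near the background. Those that fell were Ezh2, Suz12 and Eed, the core of the Polycomb repressive complex that methylates histone H3, and Dot1l, a histone methyltransferase (log2 -3.41, -2.11, -1.26 and -1.32). Ezh1, the paralogue of Ezh2, rose by 1.49. Cdx1 had 1 UMI in mesenchymal and 0 in blood cells, and Cdx2 and Cdx4 had 0 in both.

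Antisense and host transcripts of the clusters are not members, and their levels are given because they overlap or adjoin members. Whether reads were counted by strand is stated in none of the sources used here. Whether reads of overlapping partners were kept apart was not examined. Hotairm1, of the A cluster, stood at 21.2 and 27.5 CPM in mesenchymal cells and at 38.0 and 41.3 CPM in stromal-like cells. Hoxa11os stood at 10.05 and 10.3 CPM in mesenchymal, at 4.05 and 1.48 in osteoblast-like and at 12.4 and 15.0 in fibroblast-like cells, low and high in the same classes as Hoxa11. Hoxb3os stood at 2.95 and 3.93 CPM in mesenchymal cells and at 37.5 and 20.5 CPM (13 and 11 UMIs) in pericyte or smooth muscle-like cells. Hoxd3os1 (5.60 and 7.26 CPM), Hoxaas3 (3.27 and 2.72) and Hoxaas2 (2.72 and 1.21) were also detected in mesenchymal cells, Hotair was at 0.572 and 0.439 CPM, and Hottip and Hoxb5os had at most 5 UMIs in either library.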

How the data were processed

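Per the labels and the study's methods, the authors made 3′ single-cell RNA and antibody libraries, aligned them to mm10 with Cell Ranger (6.1.1 per the file headers; the methods name an earlier release) and analysed them with Seurat 4.0 in R 4.0.3. The deposited matrices hold raw counts: whole-number UMIs for 32285 genes and 1 antibody. From these counts, barcodes with fewer than 200 genes or over 20% mitochondrial UMIs were removed. Each cell took the class of the marker list with the highest share of markers detected, needing at least 3 markers and no tie, over 17 lists. The largest share of cells left without a class was 15.1%. Marker names were checked against the leading genes of each class. Predicted doublets (Scrublet in scanpy 1.11.5; 269 young and 57 old) were kept and removed in an alternative.

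UMIs were summed per library and class and tested with edgeR 4.0.16 in R 4.3.3 (quasi-likelihood, TMM, filterByExpr, Benjamini-Hochberg adjustment over all genes tested, library as block since both sums of a library come from the same cells' preparation). Each comparison thus rests on 2 libraries, which also differ in age. With the library as block, p-values rest on what still varied between the libraries after a common library difference was removed. They do not measure a spread between replicate animals. The fits of the compartments and of CD24 leave 1 residual degree of freedom. The fit was tested on simulated data with 200 changed genes. SEs were derived from the F statistic. Age had 1 library a group and no test. CD24+ cells lay above an Otsu threshold of the log antibody count. Exact Poisson and Clopper-Pearson 95% intervals and the floor of 3 UMIs cover counting error only, with free RNA and unseen doublets not modelled. Alternatives were a 10% mitochondrial limit, doublet removal, 1 more marker, thinning to 2000 UMIs, DESeq2 1.42.0 or its size factors, no filter, no block, leaving out a library and another CD24 threshold, plus 3 chosen after seeing the data: classes of at least 20 cells, the CD24+ class mix, and blood without neutrophils. All 39 members were counted and those with at least 100 UMIs named with their values, apart from items that are not reported here. Members and lists were chosen with earlier results of these data known, and no gene list supports another. Other software was numpy 2.4.6, pandas 2.3.3, scipy 1.17.1 and matplotlib 3.10.9.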

Additional observations from a re-analysis of the deposited data

Results flagged for a closer look

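Hox UMIs were also present in barcodes that the comparisons left out. Kept cells given no class held 3890 (young) and 2512 (old) Hox UMIs, or 365 and 315 CPM, nearer to the mesenchymal level (454 and 455 CPM) than to that of blood cells (41.7 and 28.1 CPM). Barcodes removed by the filter held 350 and 395 Hox UMIs, or 219 and 210 CPM. Each mesenchymal class was also set against the other mesenchymal cells in each library. No Hox gene with at least 20 UMIs in the class in each library pointed in opposite directions beyond counting error. Blood classes and genes with fewer UMIs in a class were not checked in this way.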

How the results depend on the processing

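In mesenchymal against blood cells, 18 to 26 Hox genes were higher and 0 lower under every alternative with a test, the fewest (18 of 22 tested) with cells thinned to 2000 UMIs and 23 with DESeq2, and 21 of the 26 calls held in all. With 1 library alone the median log2 change was 3.84 to 4.98. Calls that held in all alternatives with a test numbered 9 of 10 in stromal, 2 of 5 in osteoblast, 4 of 8 in fibroblast, 1 of 6 in tendon and 2 of 3 in pericyte or smooth muscle-like cells, and 0 of 7 for CD24. Without the replicate block 0 Hox genes were higher and 0 lower in CD24+ cells, against 2 and 5 with it. With DESeq2 these were 0 and 1, with 1 more marker 0 and 2, with thinned cells 0 and 1, and with the threshold set over mesenchymal cells 3 were lower. DESeq2 size factors, the 10% mitochondrial limit and no filter each left 1 higher. Calls in blood classes, 11 higher and 4 lower, became 2 higher and 2 lower when thinned and 9 lower with DESeq2. When thinned, only erythroid and neutrophil-like cells were left in this compartment. Their contrasts are then mirror images, and each call was counted in both classes. The 12 lower calls in mesenchymal classes became 4 when thinned. Thinning left 14 Hox genes to test, against 24 before. Genes with intervals apart by age went from 12 to 3 when thinned. Reversed were Hoxa10 in erythroid-like cells over classes of at least 20 cells (0.78) and Hoxa13 in neutrophil-like cells. The latter ranged from -2.70 to 7.03 with 1 library left out. Hoxc10 in neutrophil-like cells turned to -0.17 when thinned, where the contrast was with erythroid-like cells alone. The causes were not tested; thinning leaves fewer UMIs. Cluster shares of Hox UMIs moved by more than their counting interval when cells were thinned, to 52.6% (A), 2.14% (B) and 5.55% (D) in young and 51.4% (A), 4.41% (B), 38.7% (C) and 5.53% (D) in old mesenchymal cells, and in blood to 44.7% (A) and 30.3% (C) young and 12.9% (B) and 25.8% (C) old. With 1 more marker they were 52.8% (A), 2.57% (B) and 38.7% (C) young and 50.2% (A), 39.2% (C) and 6.37% (D) old in mesenchymal cells. Without doublets the young blood shares were 23.0% (B) and 2.54% (D). Tests of B lineage-like cells at the 10% limit and when thinned, of megakaryocyte-like cells when thinned and of pericyte or smooth muscle-like cells with 1 more marker were not run, as fewer than 50 cells were left. No paired analysis of age was possible because each age has 1 library.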
